A study of Mus musculus with 9 samples.

Results

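A set of 7 genes of the cholesterol pathway was followed in mouse T cells: the synthesis enzymes Hmgcs1, Idi1, Fdft1, Sqle and Cyp51, and the regulators Insig1 and Srebf2. They were taken as the genes with these symbols among the 18193 genes that the array's annotation names through a probe set with 1 gene symbol, so 7 of 18193. These 7 genes have 18 of the 34945 such probe sets, and the probe set with the highest mean over the 9 arrays stood for each gene. The set is mainly one of synthesis: it holds no gene of cholesterol uptake.

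T cells of C57BL/6 mice were cultured for 24 h in 3 ways, with 3 arrays each. In the syngeneic culture the T cells met dendritic cells of their own strain, C57BL/6. In the allogeneic culture they met dendritic cells of the BALB/c strain, whose histocompatibility molecules differ. Both held 20 T cells per dendritic cell, and no dendritic cells are named for the antibody culture. The third culture held T cells stimulated by antibodies (0.1 µg/ml) against CD3e and CD28, which engage the T cell receptor complex and its costimulatory receptor with no foreign cell. Dendritic cells were then depleted with CD11c beads and T cells enriched by negative selection. After crosslinking by UV light, Argonaute proteins were immunoprecipitated, and the RNA bound to them was amplified and hybridised to Affymetrix mouse arrays. A value is thus the log2 array signal of RNA recovered with Argonaute, the protein that holds microRNAs, and more transcript in the cell and more of it bound by Argonaute cannot be told apart. Nor can a smaller number of T cells in the pool and less RNA per cell. The labels number the arrays of each culture as biological replicates 1 to 3 and name no animals or separate cultures, so p-values measure only the spread between these arrays.

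Cholesterol is built from acetyl-CoA through mevalonate, isoprenoids, squalene and lanosterol. When the membrane of the endoplasmic reticulum is low in sterol, the factor encoded by Srebf2 is cut free and activates most genes of the pathway. Insig1 holds that factor back when sterol is plentiful, and is itself one of its targets. T cells that enter the cell cycle need sterol for new membrane and are known to switch this programme on.

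The 9 arrays separated first by replicate number. The array medians over all 45101 probe sets lay between 4.58 and 4.59 in replicate 1. They lay between 5.6 and 5.67 in replicate 2 and between 4.81 and 4.93 in replicate 3. Arrays with the same number deviated together from their culture means, with Pearson correlations across genes of 0.811 to 0.921 in all 9 pairs and of -0.597 to -0.165 in the 18 pairs with different numbers and cultures. Subtracting the culture means draws the latter below 0 when the former are positive, so the latter add no separate evidence. All 12 T cell markers measured lay above the array median on all 9 arrays. Markers of other cells were also recovered: the summed signal of 13 dendritic cell markers (log2) ranged from 13.4 to 14.8 in the syngeneic, from 12.8 to 14.9 in the allogeneic and from 12.52 to 13.77 in the antibody culture. Summed macrophage and monocyte markers, 13 in number, ranged from 13.15 to 13.63, from 11.59 to 12.02 and from 11.37 to 11.51, in the same order. Those of 7 B cell markers ranged from 12.52 to 13.78, from 11.94 to 12.93 and from 11.29 to 12.7. Of the dendritic cell list, Ccr7, Cd74 and the H2 genes are not confined to dendritic cells. Ccr7 read 11.17, 10.39 and 12.12 in replicates 1 to 3 of the antibody culture. Itgax and Flt3 did not exceed the array median on 5 and 6 of the 9 arrays. Replicate 2 stood apart in every culture: 6 adipocyte markers summed to between 12.43 and 13.65 there and to between 6.37 and 7.27 in replicates 1 and 3, and 6 stromal markers to between 10.74 and 13.0 against 6.65 to 6.97. The part of these other cells in the values of the 7 genes was not tested, and differences are therefore given within each replicate number as well. The labels do not say whether the 9 arrays were normalized together or separately for each number, and levels, array medians and shares of variance set across numbers depend on that.

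RefSeq's promoter table (GRCm38.p6) held 5 of the 7 genes, Hmgcs1, Idi1, Cyp51, Insig1 and Srebf2. The 250 bases before the transcription start are shown for 3 of them. Hmgcs1 and Srebf2 carry a match to a sterol response element. Cyp51 had the highest mean difference of the set's 5 enzymes, by brightest probe set, between stimulated and syngeneic cultures. Capitals mark TCACNCCA, a core of the sterol response element, and CCAAT, the motif of the cofactor NF-Y, read on both strands and therefore printed as ATTGG where it lies on the other strand.
Hmgcs1, chr13:119690101-119690350, plus strand: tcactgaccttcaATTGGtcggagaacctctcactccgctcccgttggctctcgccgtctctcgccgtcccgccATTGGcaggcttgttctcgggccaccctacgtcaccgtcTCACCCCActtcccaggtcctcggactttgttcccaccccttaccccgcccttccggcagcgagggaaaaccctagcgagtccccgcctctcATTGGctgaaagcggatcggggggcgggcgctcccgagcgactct
Srebf2, chr15:82147019-82147268, plus strand: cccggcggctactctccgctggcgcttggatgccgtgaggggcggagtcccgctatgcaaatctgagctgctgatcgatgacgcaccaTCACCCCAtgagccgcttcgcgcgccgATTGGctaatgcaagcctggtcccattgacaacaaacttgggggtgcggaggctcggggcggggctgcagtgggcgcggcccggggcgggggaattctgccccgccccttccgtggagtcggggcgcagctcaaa
Cyp51, chr5:4104698-4104947, minus strand: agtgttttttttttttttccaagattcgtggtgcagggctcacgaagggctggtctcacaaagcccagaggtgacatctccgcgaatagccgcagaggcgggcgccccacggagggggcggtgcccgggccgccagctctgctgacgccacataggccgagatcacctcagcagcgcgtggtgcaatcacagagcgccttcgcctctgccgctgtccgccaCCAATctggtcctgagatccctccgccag
TCACNCCA was found in 2 of the 5 promoters, Hmgcs1 and Srebf2, and in 3.67% of all 32851 promoter windows of that length. The match lay 137 to 130 bases before the start of Hmgcs1 and 162 to 155 bases before that of Srebf2. CCAAT was found in 5 of 5 against 33.8% of all windows, and GGGCGG, the motif of Sp1, in 5 of 5 against 32.7%. None of these matches overlapped another. These matches describe letters in the windows and show no binding.

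Hmgcs1 encodes a synthase at the start of the route, which makes HMG-CoA. Its log2 values in replicates 1, 2 and 3 were 11.27, 11.2 and 11.05 in the syngeneic, 11.27, 10.46 and 11.21 in the allogeneic and 11.4, 11.24 and 11.12 in the antibody culture. It stayed at or above the 97.5th percentile of probe sets on every array, with that lowest percentile on the syngeneic array of replicate 3. In log2 value the allogeneic array of replicate 2 was the lowest of the 9, at the 97.9th percentile. The allogeneic mean was 10.98 ± 0.45 (SD, n = 3) and the syngeneic mean 11.17 ± 0.11, so that they differed by -0.19 ± 0.33 (SE) on the log2 scale. The groups overlapped.

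Idi1, the isomerase that interconverts the isoprenoid building blocks, read 9.97, 9.97 and 10.73 in the syngeneic, 10.48, 9.65 and 10.97 in the allogeneic and 10.48, 10.34 and 10.23 in the antibody culture. Replicate 3 was the highest array of both dendritic cell cultures and the lowest of the antibody culture. The difference from the syngeneic culture was 0.14 ± 0.44 with allogeneic cells and 0.12 ± 0.44 with antibodies.

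Fdft1 makes squalene, the first step given over to sterols. It read 8.37, 8.82 and 9.34 in the syngeneic, 8.6, 8.52 and 9.4 in the allogeneic and 8.64, 8.38 and 8.52 in the antibody culture. The allogeneic and syngeneic means were both 8.84, with SDs of 0.49 and 0.48, and the antibody mean was 8.51 ± 0.13 (SD, n = 3). With replicate number as a block, the 95% interval of the allogeneic difference (limma) ran from -0.62 to 0.62, so a change of that size in either direction is not excluded by these arrays.

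Sqle, the epoxidase that oxidises squalene, had the widest range of the 5 enzymes. It read 5.66, 6.7 and 7.68 in the syngeneic, 5.66, 5.61 and 8.1 in the allogeneic and 5.66, 7.83 and 7.35 in the antibody culture. The 3 arrays of replicate 1 held the same value, and the allogeneic array of replicate 2 lay at the 49.0th percentile of probe sets. For the brightest probe sets of the 7 genes, this was the only value under an array median. Between the 2 stimulated cultures of replicate 2 the allogeneic minus antibody difference was -2.22, the largest within a replicate for any of the 7 genes.

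Cyp51 removes a methyl group from lanosterol, after the ring has closed. It read 9.19, 8.99 and 9.35 in the syngeneic, 10.53, 8.49 and 9.74 in the allogeneic and 10.23, 9.27 and 9.45 in the antibody culture. In the antibody culture it was above the syngeneic array in all 3 replicates, by 1.05, 0.28 and 0.1, and the mean difference was 0.47 ± 0.56. In the allogeneic culture it was higher by 1.34 in replicate 1, lower in replicate 2 (-0.5) and higher by 0.39 in replicate 3, a mean difference of 0.41 ± 0.56. The 95% intervals with the block ran from -0.5 to 1.32 with allogeneic cells and from -0.44 to 1.39 with antibodies, and both held 0.

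Srebf2, the transcription factor of the pathway, read 7.92, 6.94 and 9.28 in the syngeneic, 7.92, 7.26 and 9.89 in the allogeneic and 7.92, 7.26 and 10.19 in the antibody culture. Replicate number accounted for 95.7% of its variance and culture for 2.4%. In replicate 1 the 3 cultures held one identical value, whereas in replicates 2 and 3 both stimulated cultures lay above the syngeneic one, by 0.33 and 0.61 with allogeneic cells and by 0.33 and 0.91 with antibodies. The mean differences were 0.31 and 0.41, each with an SE of 0.91, and of 0.19 once replicate number was a block. The 95% intervals with the block ran from -0.17 to 0.8 with allogeneic cells and from -0.07 to 0.9 with antibodies.

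Insig1, the brake on that factor, read 8.64, 9.16 and 9.26 in the syngeneic, 8.85, 8.59 and 9.34 in the allogeneic and 8.64, 8.63 and 8.27 in the antibody culture. It had the lowest share of variance by replicate number of the 7 genes (8.99%) and the highest by culture (42.2%). Neither share was set against those of all genes, and no comparison of Insig1 had an adjusted p under 0.05 (limma). The antibody array matched the syngeneic one in replicate 1 and lay lower in replicates 2 (-0.53) and 3 (-0.99), a mean difference of -0.51 ± 0.5, with a 95% interval from -1.18 to 0.17 under the block. Insig1 was thus lower in the antibody culture where the brightest Srebf2 probe set was higher, in replicates 2 and 3. The dimmer Srebf2 probe set differed by 0.0 in replicate 2 there. With allogeneic cells Insig1 and the brightest Srebf2 probe set differed by -0.57 and 0.33 in replicate 2. In replicate 3 both were higher, by 0.08 and 0.61.

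**Figure D1:**
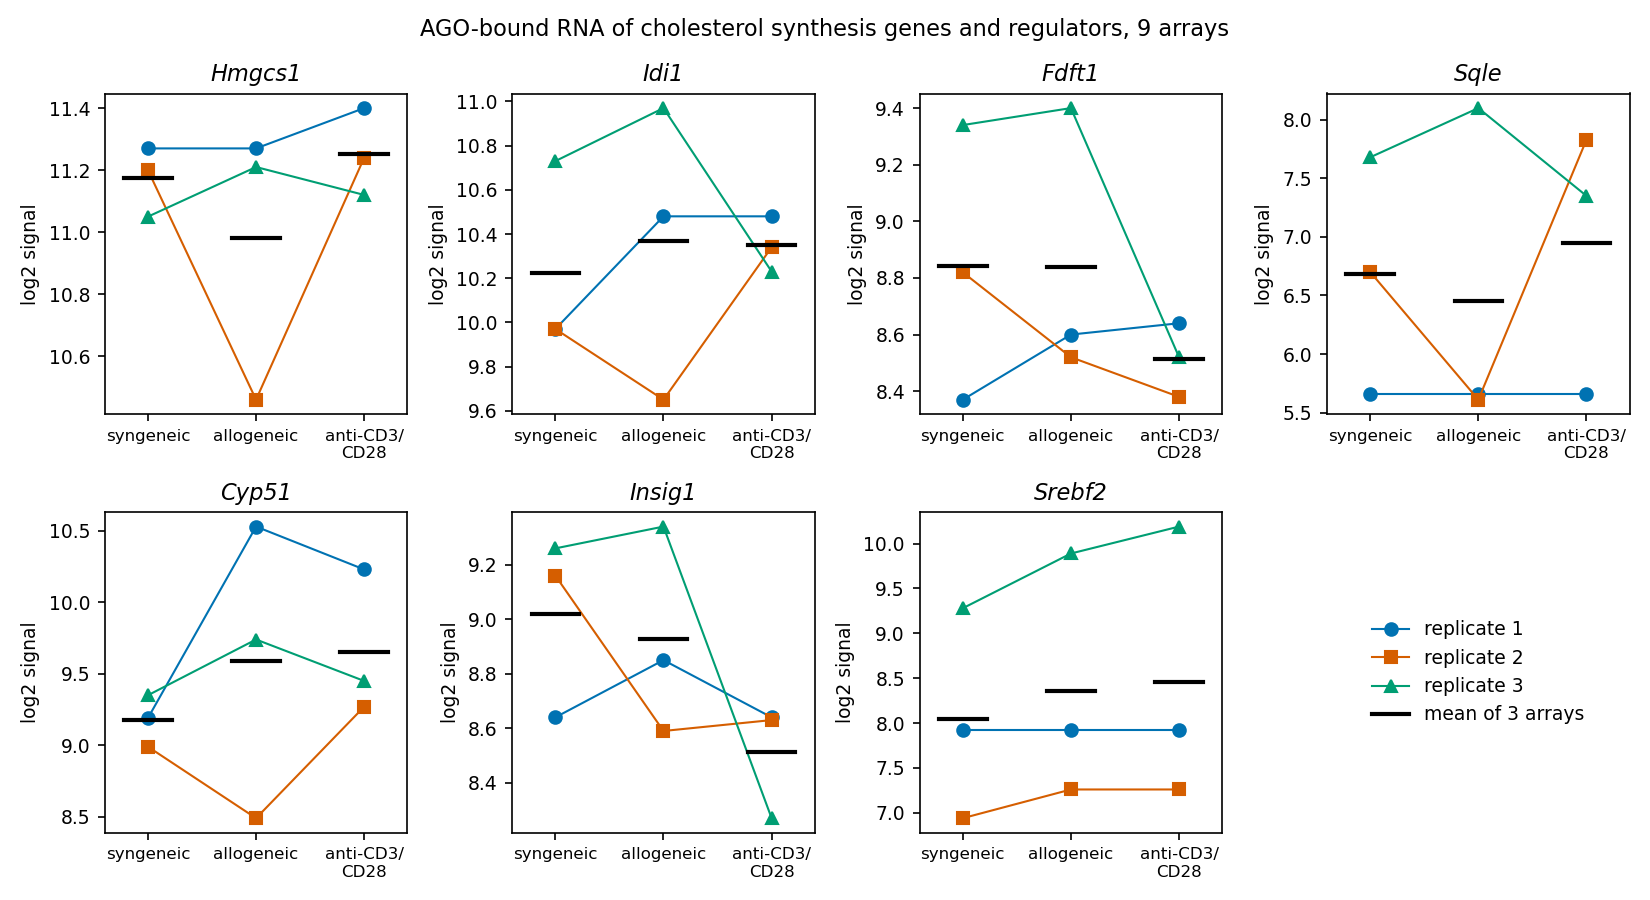
Log2 array signal (vertical axis) of each of the 7 genes in the 3 cultures (horizontal axis), with 1 point per array and a symbol for each replicate number. Srebf2 separates by replicate number and not by culture, and the allogeneic array of replicate 2 is the lowest of the 9 in log2 signal for Hmgcs1, Idi1, Sqle and Cyp51.

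The comparison of allogeneic with syngeneic culture asks what foreign dendritic cells add to contact with dendritic cells of the same strain. Of the 7 genes, 0 passed an adjusted p of 0.05 in limma's test over all 18193 genes, as did 0.0% of all genes, and the groups overlapped for all 7; of all genes, 0.192% lay higher and 0.451% lower with no overlap. At an unadjusted p under 0.05 the test took 0 of the 7 and 27 (0.148%) of all genes. Of the 7, 4 had a mean difference at or above 0 and 3 below, with a median of 0.0 beside 0.03 over all genes. Replicate number as a block gave 0 of 7 too, with adjusted p between 0.709 and 1.0 (limma), and 0 of 7 and 825 (4.53%) of all genes at an unadjusted p under 0.05.

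The 7 genes did not keep 1 direction over the replicates of that comparison. Their median difference was 0.21 in replicate 1, -0.5 in replicate 2 and 0.24 in replicate 3. In replicate 2, 6 of 7 were lower with allogeneic cells, Srebf2 being the exception, where 32.4% of all genes and 56.5% of the 6568 genes brighter on average than Sqle were lower. In replicate 3 all 7 were higher, against 37.7% of all genes and 46.0% of the brighter ones. Of the 7 genes, 6 were lower in replicate 2 and also higher in replicate 3, a pair of directions held by 12.8% of all genes and 23.7% of the brighter ones. No gene of the 7 was higher in all 3 replicates and none lower in all 3, against 7.29% and 7.96% of all genes.

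**Figure D2:**
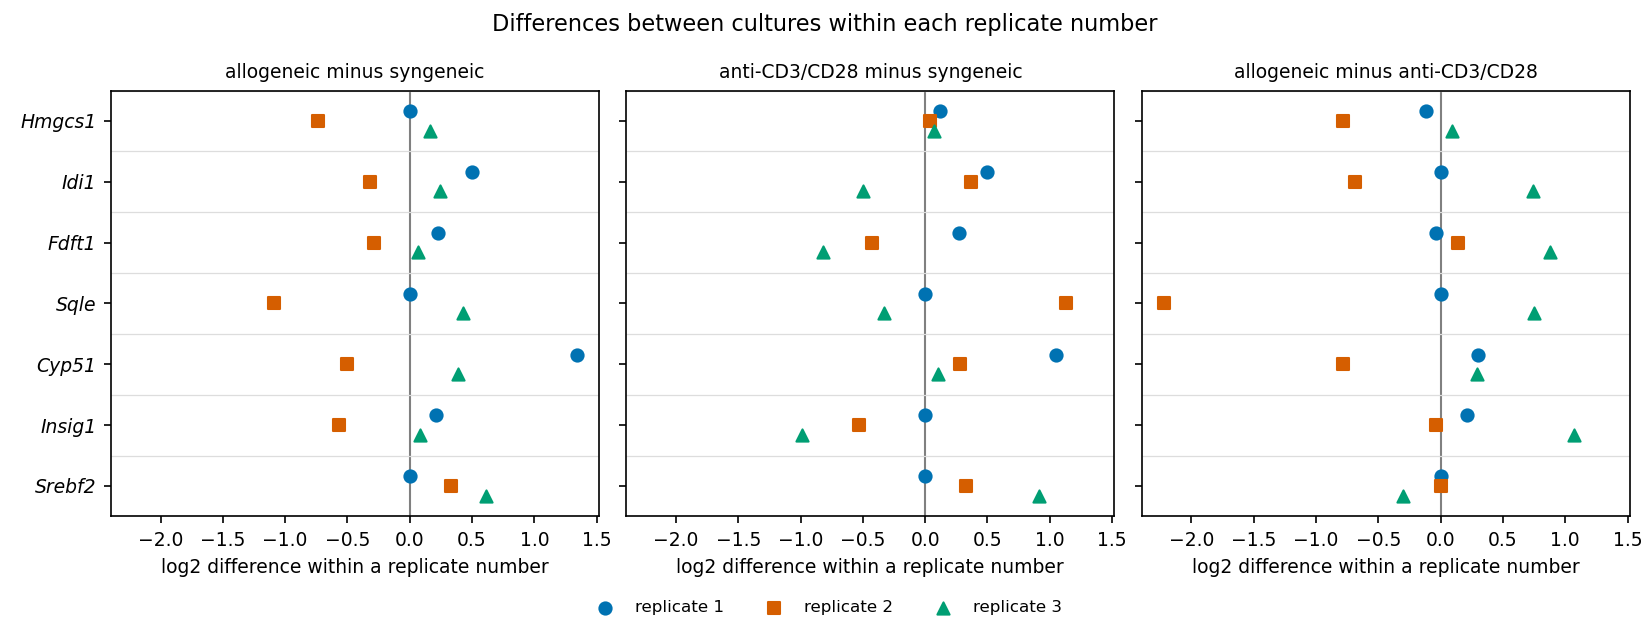
Log2 difference between cultures within each replicate number (horizontal axis) for the 7 genes (vertical axis), with 1 panel per comparison and a symbol for each replicate number. In the allogeneic against syngeneic panel, the replicate 2 symbols of 6 genes lie left of 0 and the replicate 3 symbols of all 7 lie right of it.

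Antibody stimulation against syngeneic culture sets activation through CD3 and CD28 against contact with dendritic cells of the same strain. No dendritic cells are named for the antibody culture, so activation and their absence cannot be told apart here. By their means, 13 of 13 dendritic cell markers (median -0.81) and 13 of 13 macrophage and monocyte markers (median -0.85) were lower with antibodies. Their part in the values of the 7 genes was not tested. Again 0 of 7 genes passed an adjusted p of 0.05 (limma), as did 0.0% of all genes, while 156 (0.857%) of all genes and 0 of the 7 had an unadjusted p under 0.05. With replicate number as a block the adjusted p of the 7 lay between 0.729 and 0.939 (limma), and 0 of 7 against 6.79% of all genes had an unadjusted p under 0.05. The groups overlapped for all 7, while 0.412% of all genes lay higher and 1.52% lower with no overlap. Of the 7, 5 had a mean difference above 0 and 2 below, Fdft1 and Insig1, with a median of 0.12 beside 0.0 over all genes. By their brightest probe sets Hmgcs1 and Cyp51 were higher in all 3 replicates, 2 of 7 against 7.8% of all genes. The differences of Hmgcs1 were 0.12, 0.04 and 0.07. The dimmer Cyp51 probe sets differed by 0.0 in replicate 3. Lower in all 3 were 0 of 7, against 9.15%. The median over the 7 was 0.12 and 0.28 in replicates 1 and 2 and -0.33 in replicate 3.

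Allogeneic and antibody cultures, both stimulated, differ in the means of stimulation and also in whether dendritic cells were present, so that foreignness and the presence of dendritic cells cannot be told apart in this comparison. Here too 0 of 7 passed (limma, adjusted p of 1.0 for each, and 0.928 to 1.0 with the block), as did 0.0% of all genes. An unadjusted p under 0.05 was found for 24 (0.132%) of all genes, and for 1.13% with the block, and for 0 of the 7 in either fit. The groups overlapped for all 7, while 0.269% of all genes lay higher and 0.055% lower with no overlap. The median difference was 0.0 in replicate 1, -0.69 in replicate 2 and 0.74 in replicate 3. In replicate 2, 5 of 7 were lower, against 31.4% of all genes and 58.7% of the brighter ones, and in replicate 3, 6 of 7 were higher, against 43.1% and 63.9%. Hmgcs1, Idi1, Sqle, Cyp51 and Insig1 were both, 5 of 7 against 18.5% of all genes and 37.3% of the brighter ones, with Insig1 at -0.04 in replicate 2. None of the 7 was higher or lower in all 3 replicates, against 4.39% and 2.58% of all genes. The allogeneic array was the lowest of the 3 cultures in replicate 2 for 5 of 7 genes (21.9% of all genes) and the highest in replicate 3 for 6 of 7 (22.7%). The 3 comparisons share their arrays in pairs and are not independent of one another.

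Other lists also had medians below 0 in replicate 2 and above 0 in replicate 3 of the allogeneic against antibody comparison. The medians were -0.28 and 0.33 for the other synthesis enzymes, -0.39 and 0.07 for uptake and transport genes, -0.12 and 0.09 for the other regulators, -0.21 and 0.18 for fatty acid genes and -0.12 and 0.19 for the 6568 brighter genes. Cell cycle genes were among them: all 12 mitosis genes measured were lower in the allogeneic than in the antibody array of replicate 2, with a median of -1.07, and all 12 were higher in replicate 3, with a median of 0.56. Against the syngeneic array their medians were 1.68, 0.36 and 0.85 in the 3 replicates of the allogeneic culture and 1.9, 1.38 and 0.38 in those of the antibody culture. For allogeneic against syngeneic, the lipid lists did not all lie below 0 in replicate 2 and above 0 in replicate 3. The medians there were 0.0 and 0.49 for the other synthesis enzymes, of which 3 of 12 had both directions. They were -0.39 and -0.07 for uptake and transport genes, -0.23 and 0.0 for the other regulators and -0.87 and 0.18 for fatty acid genes. Adipocyte and stromal markers, high only in replicate 2, were there lower in the allogeneic than in the syngeneic array, with medians of -1.49 and -1.96. Dendritic cell markers (median -1.02, 11 of 13 lower) and macrophage and monocyte markers (median -0.84, 13 of 13 lower) also lay lower in that pair of arrays. Against the antibody array of replicate 2 the allogeneic array had the higher adipocyte and stromal markers, with medians of 0.46 (6 of 6 higher) and 0.51 (5 of 6 higher). T cell markers were lower than in the antibody array, 11 of 12 in replicate 2 (median -0.58) and 9 of 12 in replicate 3 (-0.22). Against the syngeneic array of replicate 2, 7 of 12 were higher in the allogeneic array (median 0.15). The part of these markers in the values of the 7 genes was not tested.

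**Figure D3:**
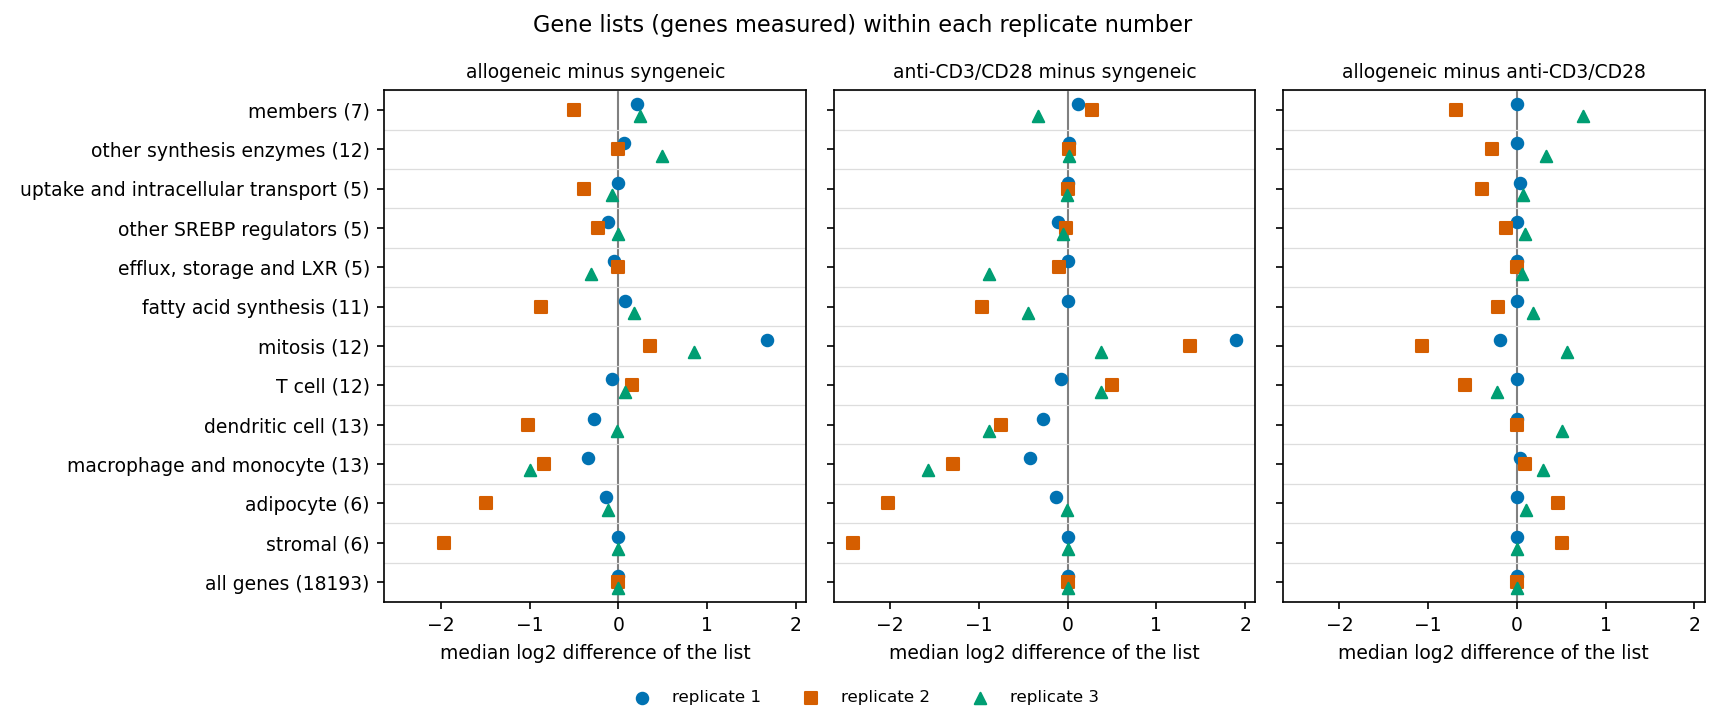
Median log2 difference of each gene list (vertical axis, number of genes measured in brackets) within each replicate number, with 1 panel per comparison and a symbol for each replicate number. Against the antibody culture, the 7 genes, the other synthesis enzymes, the uptake, regulator and fatty acid lists and the mitosis list lie left of 0 in replicate 2 and right of it in replicate 3.

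Of the 7 genes, 5 have more than 1 probe set, and these did not always agree. Hmgcs1 has 5. The second brightest, 1433446_at, read 7.33, 8.68 and 8.82 in the syngeneic, 8.25, 9.11 and 9.49 in the allogeneic and 8.25, 9.15 and 9.32 in the antibody culture. It was thus higher than in the syngeneic array in all 3 replicates of both stimulated cultures, by 0.92, 0.43 and 0.67 with allogeneic cells and by 0.92, 0.48 and 0.5 with antibodies. In a fit of all 34945 probe sets its difference was 0.67 ± 0.64 and 0.63 ± 0.64 without a block. With replicate number as a block the SE was 0.14 and the unadjusted p 0.00408 and 0.00537, with adjusted p of 0.747 and 0.736 (limma), so it passed in neither, as did 0.0% of all probe sets; 6.84% and 7.94% of all probe sets were higher in all 3 replicates. The brightest, 1433443_a_at, differed by 0.0, -0.74 and 0.16 with allogeneic cells. In that comparison 1433445_x_at differed by 0.18, -1.24 and 0.51 and 1433444_at by 0.32, -1.02 and 0.55, both lower in replicate 2 like the brightest. The dimmest, 1441536_at, differed by 0.0, 0.68 and -0.22 and did not exceed the array median on any of the 9 arrays. Of the 4 Fdft1 probe sets, the 3 dimmer ones were higher with allogeneic cells in replicate 2, by 0.41, 0.5 and 0.28, where the brightest was lower (-0.29). Of these, the last 2 were dim, not exceeding the median of their array on 6 and 8 of the 9 arrays, replicate 2 included. The brightest and the dimmest have names that end in _x_at, which marks probes that can also bind other transcripts. The dimmer Cyp51 probe sets, 1422533_at and 1422534_at, differed by 0.0 in replicate 3 with antibodies. The brightest was higher by 0.1. With allogeneic cells 1422534_at differed by 0.24 and -0.05 in replicates 2 and 3. The brightest gave -0.5 and 0.39 there, and 1422533_at -0.55 and 0.33. The dimmer Idi1 probe set, 1423804_a_at, differed by -0.04 in replicate 3 with allogeneic cells, where the brightest was higher by 0.24. Both Srebf2 probe sets were higher in replicate 3 of both stimulated cultures. The differences were 0.61 and 0.84 with allogeneic cells and 0.91 and 0.88 with antibodies. In replicate 2 the dimmer, 1452174_at, differed by 0.08 with allogeneic cells and 0.0 with antibodies, where the brightest was higher by 0.33 in both.

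**Figure D4:**
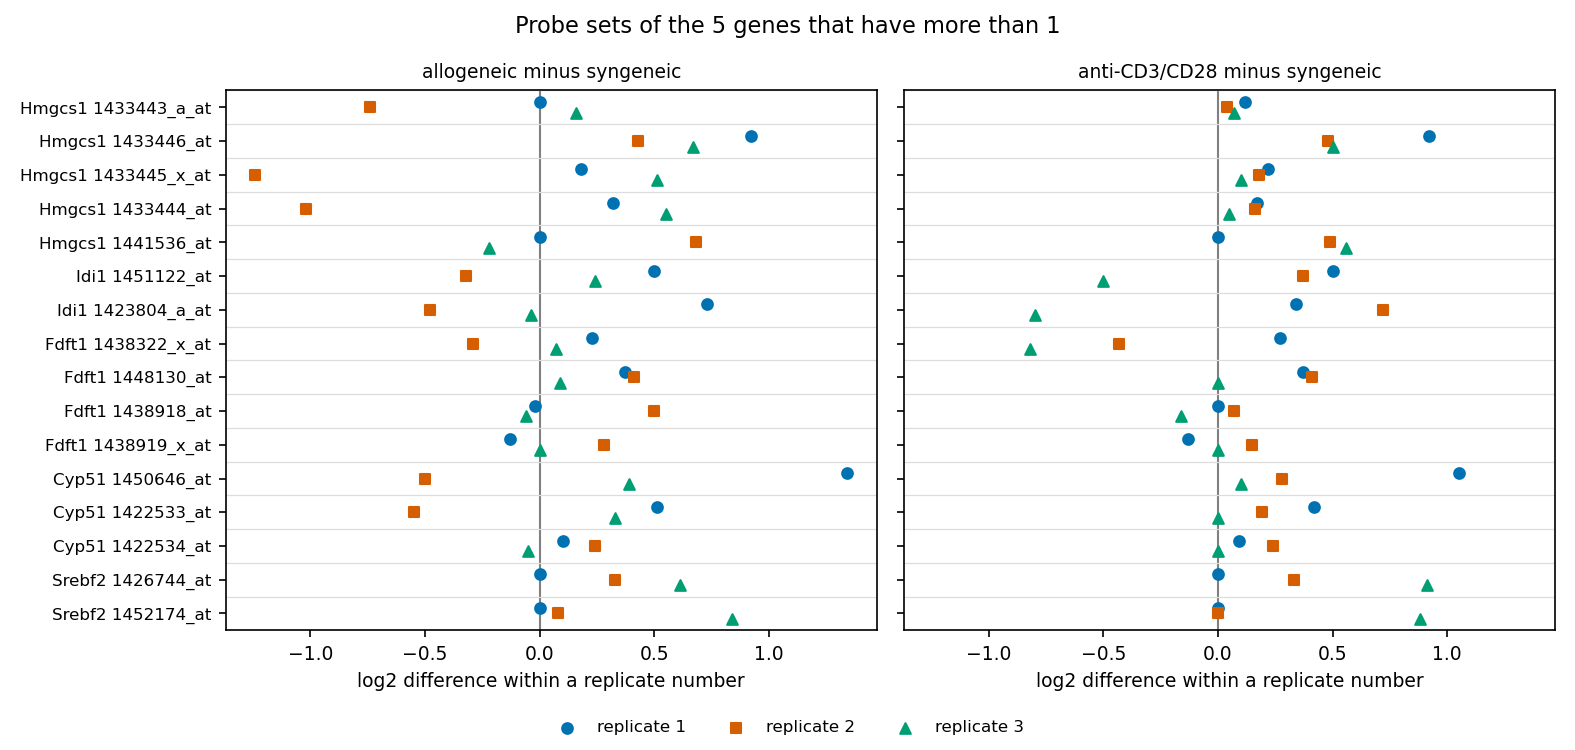
Log2 difference from the syngeneic array within each replicate number (horizontal axis) for all probe sets of the 5 genes that have more than 1 (vertical axis), with 1 panel per stimulated culture. The Hmgcs1 probe set 1433446_at has its 6 symbols between 0.43 and 0.92, right of 0 in both panels.

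Across the 9 arrays, after centring within replicate number, the 7 genes differed in how closely they followed the mean of the other 6. The Pearson correlation was 0.924 for Idi1, 0.702 for Hmgcs1, 0.655 for Sqle, 0.635 for Cyp51, 0.4 for Insig1, 0.364 for Fdft1 and -0.351 for Srebf2. These points share 3 replicates and are given as a description. Among the other enzymes, Msmo1, the sterol demethylase that acts after Cyp51, had a correlation with the mean of the 7 of 0.919, Fdps, which makes farnesyl diphosphate, one of 0.75, and Lss, the lanosterol synthase, one of 0.703. Next came Hsd17b7 (0.633), Nsdhl (0.603) and Sc5d (0.566). Other enzymes of the route followed the 7 less closely or not at all. The values were 0.395 for Pmvk, 0.304 for Dhcr7, 0.16 for Ebp, 0.118 for Mvk and -0.212 for Mvd. In the other lipid lists, the highest were Fads1 (0.841) and Scd2 (0.837) of fatty acid synthesis and Mbtps2 (0.743) of the regulators. The lowest there was Nr1h3 (-0.551). Of 10905 genes ranked outside the lipid lists, the 8 most alike were Gclm (0.996), a subunit of the enzyme that begins glutathione synthesis, Rad23b (0.99), Hccs (0.989), Malsu1 (0.988), Mrpl13, Mrps25 and Nudcd1 (each 0.979) and Tmem64 (0.976). Mrpl13 and Mrps25 are proteins of the mitochondrial ribosome. Mrps25, for one, differed by 0.61, -1.05 and 0.49 between allogeneic and syngeneic arrays.

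The rest of the synthesis route was measured through 12 of 15 listed enzymes, and 0 of 12 passed in any of the 3 comparisons (limma, adjusted p). Their medians were -0.05, 0.09 and 0.04 for allogeneic against syngeneic, antibody against syngeneic and allogeneic against antibody. Of the 12, 3 were higher in all 3 replicates with allogeneic cells and 3 with antibodies, against 7.29% and 7.8% of all genes. With allogeneic cells these were Mvk, Fdps and Sc5d. Mvk, the mevalonate kinase, had the smallest blocked p of the list there (0.0791 unadjusted, adjusted p 0.709, limma), with differences of 0.15, 0.16 and 0.95 (0.42 ± 0.8). Fdps was higher in all 3 in both cultures, by 0.51, 0.11 and 1.2 with allogeneic cells and by 0.62, 1.48 and 0.17 with antibodies. The mean differences were 0.61 ± 0.97 and 0.76 ± 0.97. In replicate 2 its syngeneic and allogeneic values, 5.45 and 5.55, lay under their array medians of 5.6 and 5.67. Sc5d, a desaturase near the end of the route, was higher by 1.26, 0.03 and 0.6 with allogeneic cells (0.63 ± 0.67). With antibodies Sc5d was higher by 1.26, 0.03 and 0.01 (0.43 ± 0.67). Dhcr7, the last reductase, was higher by 0.23, 1.34 and 0.24 with antibodies (0.6 ± 0.68). Pmvk, the phosphomevalonate kinase, differed by -0.11, -0.6 and -0.89 with allogeneic cells.

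Uptake and transport inside the cell were measured through 5 of 8 genes, and 0 passed. Scarb1, the receptor that takes up cholesterol ester from HDL, differed by 0.66, -0.48 and 1.95 between allogeneic and syngeneic arrays. Lipa, the lysosomal lipase that frees cholesterol from its esters, differed by -0.31, -1.29 and -0.2 between the same arrays, and Npc2, which carries cholesterol out of lysosomes, by 0.0, -0.4 and -0.34 between antibody and syngeneic arrays. None of the 5 other regulators measured passed. Srebf1, the sister factor of Srebf2, was lower in replicates 1 and 2 of the allogeneic culture (-0.82 and -0.64) and equal in replicate 3.

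Lists of sterol export and of fatty acid synthesis were measured as well. Of 5 efflux, storage and LXR genes 0 passed, with medians of -0.1 for allogeneic and -0.33 for antibody against syngeneic culture. The exporter Abca1 differed by -0.06, -2.16 and -3.14 between antibody and syngeneic arrays (-1.78 ± 1.13), and its relative Abcg1 by -0.17, -1.94 and -0.99 between allogeneic and syngeneic arrays (-1.03 ± 0.76). Of 11 fatty acid genes 0 passed, with medians of -0.35 for allogeneic and -0.36 for antibody culture. By replicate the medians were 0.07, -0.87 and 0.18 with allogeneic cells and 0.0, -0.96 and -0.45 with antibodies, so the lowest came from replicate 2, where adipocyte markers were high. Elovl6, an elongase, was lower in all 3 replicates of both stimulated cultures, at -1.16, -2.26 and -0.35 with allogeneic cells and -1.29, -1.5 and -1.54 with antibodies. With replicate number as a block the unadjusted p of Elovl6 was 0.0249 and 0.015, and the adjusted p 0.709 and 0.711 (limma). Macrophage and monocyte markers were lower in the same comparisons, 13 of 13 by their mean, with medians of -0.76 and -0.85, and adipocyte markers had medians of -0.62 and -0.79 over 6 genes. Their part in these lipid values was not tested.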

How the data were processed

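The authors deposited 1 table of log2 signal, 45101 probe sets on 9 arrays, normalized with RMA per the submitters' processing notes; no label names the program or its version. Symbols came from the platform annotation: 34945 probe sets had 1 gene, 932 several and 9160 none, and 64 were controls. The brightest probe set stood for each gene. limma 3.58.1 in R 4.3.3 (lmFit, eBayes with trend) was fitted to all 9 arrays without a block, with Benjamini-Hochberg adjustment over 18193 genes and a threshold of 0.05. Because same-numbered arrays deviated together, replicate number as a block is given as well. Exactly equal values within a number were common (29.1% of gene pairs, 15.9% for the 7 genes) and count as no direction. Depth does not apply to arrays, and their number limits the precision. Genes named from the lipid lists came from the up to 4 per list and comparison with the smallest blocked p. Not all are printed. The 8 genes most alike above the 40th percentile of mean signal are named. Msmo1, Lss, Ebp, Mvd, Fads1, Scd2, the others given only by correlation and the probe sets were singled out after their values were seen. The genes and lists were chosen with earlier results of these data known, and the adipocyte and stromal lists after seeing these arrays.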

Additional observations from a re-analysis of the deposited data

How the results depend on the processing

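No gene of the 7 passed in any of the 11 other settings or the 12 fits that left out arrays; the lowest adjusted p of any was 0.482, for Insig1 between antibody and syngeneic culture with replicate number as a random block. Replicate number as a fixed block changed no call. The count of genes with 1 direction in all 3 replicates moved. For allogeneic against syngeneic it was 0, and 1 with quantile normalization, median centring, the mean of a gene's probe sets, or the most variable probe set. For antibody against syngeneic it was 2, 5 with quantile normalization, 3 with median centring and 1 with the most variable probe set. For allogeneic against antibody it was 0, and 1 with quantile normalization or median centring. It could not be given with arrays left out. The share of all genes with 1 direction is not given for these other settings, so their counts show nothing particular to the 7. In the deposited values 3 of the 7 were exactly equal in replicate 1 of antibody against syngeneic, which counts as no direction. The random block called 1, 30 and 0 of all genes in the 3 comparisons in place of 0, none of them among the 7. Signs turned for 15 of 21 differences. Median centring gave -0.03 for Fdft1 (allogeneic against syngeneic) and -0.13 for Idi1 (allogeneic against antibody). The mean of probe sets gave 0.08 for Hmgcs1 (allogeneic against syngeneic). The most variable probe set gave 0.26 for Fdft1 (antibody against syngeneic), -0.02 for Idi1 and 0.01 for Srebf2 (allogeneic against antibody).

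With single arrays or a whole replicate left out, the median of the 7 ranged from -0.3 to 0.28 for allogeneic against syngeneic, from 0.0 to 0.38 for antibody against syngeneic and from -0.29 to 0.45 for allogeneic against antibody. For allogeneic against syngeneic, Hmgcs1 ranged from -0.37 to 0.08, Idi1 from -0.16 to 0.5, Fdft1 from -0.28 to 0.25, Sqle from -1.04 to 0.28, Cyp51 from -0.06 to 0.96, Insig1 from -0.3 to 0.15 and Srebf2 from -0.45 to 0.93. For antibody against syngeneic, Idi1 ranged from -0.07 to 0.44, Sqle from -0.24 to 0.91 and Srebf2 from -0.45 to 1.03. For allogeneic against antibody, Idi1 ranged from -0.34 to 0.38, Sqle from -1.31 to 0.38, Cyp51 from -0.53 to 0.49 and Srebf2 from -0.87 to 0.77. With replicate 1 left out and the others as a block, allogeneic against syngeneic gave -0.04 for Idi1, -0.11 for Fdft1 and -0.05 for Cyp51; without replicate 2 it gave 0.21 for Sqle, and allogeneic against antibody gave 0.29 for Cyp51. Without the allogeneic array of replicate 2, Hmgcs1 gave 0.07. The cause was not tested.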
